A study of Homo sapiens with 60 samples.

Results

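The MYC and PVT1 locus is described here as the chromatin peaks deposited between chr8:128200000-129300000 (GRCh37), a stretch of 1.1 Mb that holds MYC at chr8:128748315-128753680 and PVT1 at chr8:128806779-129113499. Every deposited peak that overlapped this stretch was taken, whatever its reproducibility, which gave 786 peaks of the 507426 in 24 lists. Of these, 559 were peaks of H3K27Ac, 136 of RAD21, 82 of PDS5A and 9 of IgG. The peaks were measured by CUT&RUN, which cleaves chromatin at a bound antibody and sequences the released fragments, in PC9 cells, a human lung adenocarcinoma line with an activated EGFR.

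The cells were wild-type PC9 (WT), PC9 with METTL7A knocked out (KO), and KO cells overexpressing METTL7A fused to a MYC tag and FLAG (Rescue). The tag is a short peptide, not the gene described here. Each genotype was untreated or treated with osimertinib, an EGFR inhibitor, in doses raised from 100 nM over 6 to 8 weeks. Whether a genotype was 1 clone is not said in the labels. A group was 1 genotype, treatment and antibody, each with 2 replicates joined in 1 deposited list. H2A libraries were not analysed here.

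MYC encodes a transcription factor that drives cell growth and division, and PVT1, its downstream neighbour, is a long noncoding RNA gene whose promoter and intragenic enhancers are known to contact the MYC promoter. MYC lies in a gene-poor region where distant enhancers, often specific to a tissue, act on it through chromatin loops. RAD21 is a core subunit of cohesin, the ring that extrudes such loops, and PDS5A is a cohesin-bound protein that helps decide how long cohesin stays on DNA. H3K27Ac marks active promoters and enhancers, and IgG is the background control. In the gene order of RefSeq GRCh38.p14, in which both symbols were found, CASC11 precedes MYC and PVT1 follows it.

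A peak is said to pass when its global irreproducible discovery rate (IDR), which measures how well its rank agrees between both replicates, was 0.05 or less. Of the 786 peaks 126 passed: 77 of H3K27Ac, 38 of RAD21, 11 of PDS5A and 0 of IgG. Each replicate's value for a peak is the deposited −log10 p, used here to order the peaks of a list, always by the weaker replicate, with rank 1 the strongest. Each list has no second list of its own group. Differences between lists therefore carry no test, and the exact (Clopper-Pearson) 95% intervals below cover counting error over peaks only. Depth per library is unknown from the lists. Which of the 2 value columns is which labelled replicate was not given in the sources used here, so they are called first and second.

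**Figure D1:**
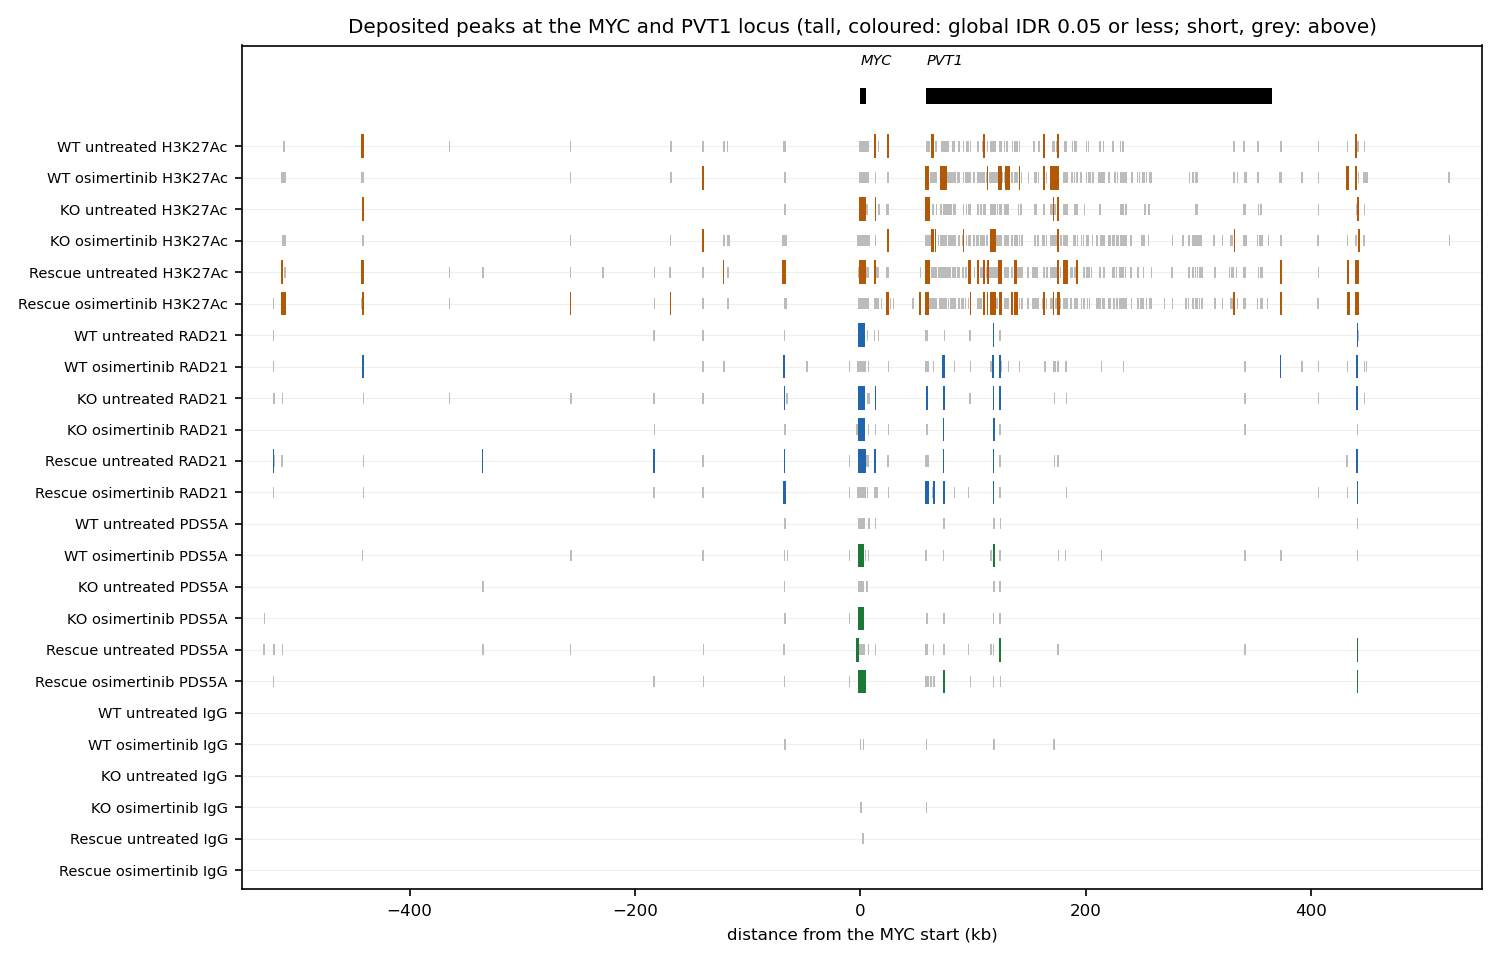
Position of each deposited peak (bars, widened to at least 1.2 kb for display) in kb from the MYC start, 1 line per list. Tall coloured bars passed the IDR limit of 0.05 and short grey bars did not; H3K27Ac peaks crowd the first part of PVT1, and no IgG peak passed.

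H3K27Ac peaks were dense at this locus, and most of them lay over PVT1. The locus held 65 deposited H3K27Ac peaks in untreated WT and 95 in treated WT. In KO it held 62 untreated and 111 treated, and in Rescue 103 and 123. Among non-overlapping windows of the same length across the genome, only 7 windows had more deposited H3K27Ac peaks in untreated WT, of 2023 windows with a peak and a median of 7 peaks. In treated WT 7 windows had more, in untreated KO 18, in treated KO 4, in untreated Rescue 4 and in treated Rescue 6. The locus thus ranked high in every H3K27Ac list by deposited peaks. By peaks that passed it ranked lower: 74 windows (treated Rescue) to 250 windows (treated KO) had more. By deposited peaks, 93 to 391 windows had more for RAD21 and 407 to 684 for PDS5A. For IgG the longest list, from treated WT, placed 6 peaks in the locus, and 362 windows had more.

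Of the 559 H3K27Ac peaks, 426 overlapped PVT1. That is a mean of 23.1 deposited peaks per 100 kb and list over PVT1, against 2.04 between the left edge and MYC, 11.3 between both genes and 3.13 after PVT1. Over MYC itself, only 5366 bp long, the mean was 24.8, from 8 peaks in all. These covered 87.4% to 93.3% of MYC. H3K27Ac peaks covered 20.6% of the length of PVT1 in untreated KO, the lowest, and 43.6% in treated Rescue, the highest. RAD21 peaks covered 1.81% to 7.25% of PVT1 and PDS5A peaks 0.611% to 3.06%. The crowding was uneven along PVT1, given here for 50 kb stretches chosen after their values were seen. In the 50 kb that start 200 kb after the MYC start, the 6 H3K27Ac lists held 4 to 20 peaks each and 78 in all, and 0 of these passed. In the preceding 50 kb they held 87, of which 14 passed, and in the following 50 kb 41, of which 0 passed. Of the whole H3K27Ac lists 21.7% to 36.6% passed.

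**Figure D2:**
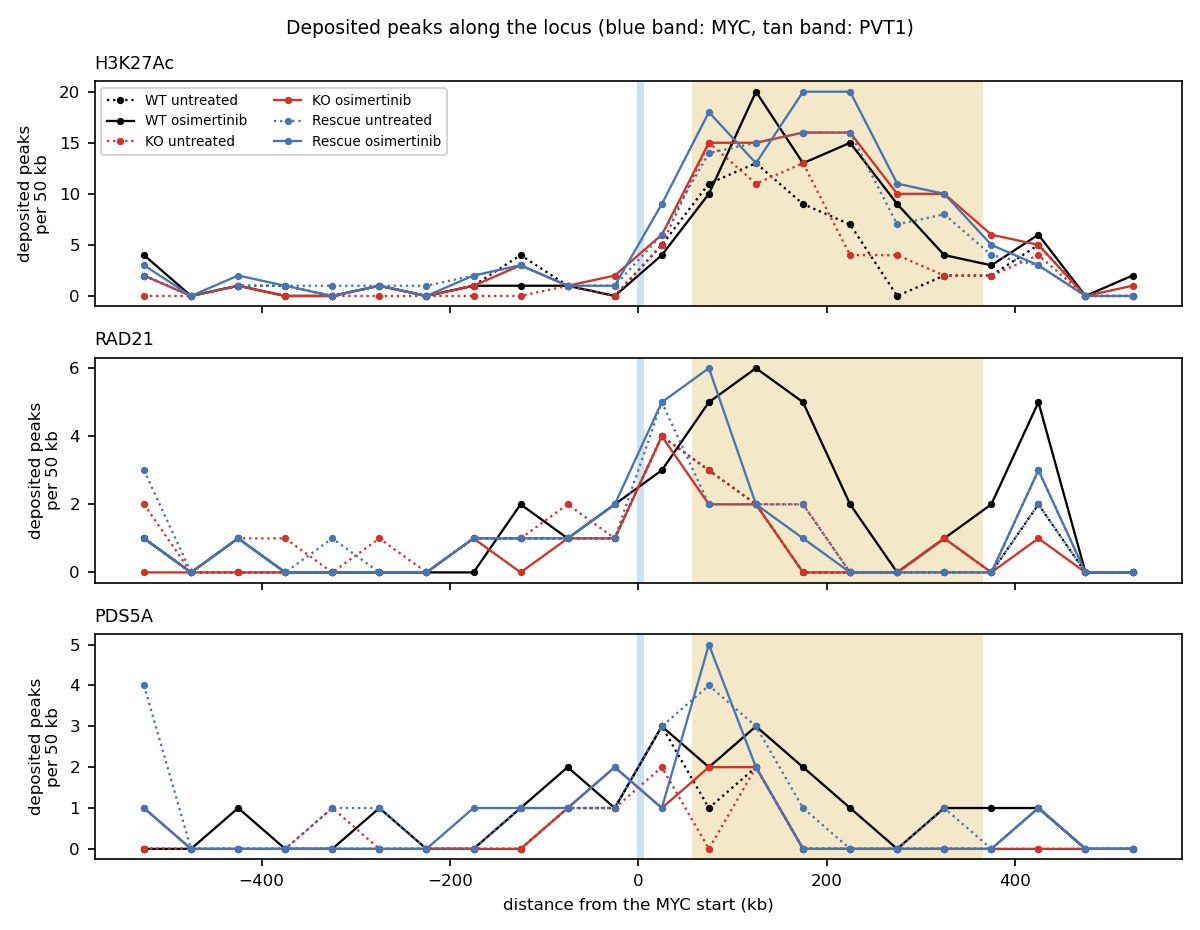
Deposited peaks per 50 kb (y axis, by peak middle) against distance from the MYC start in kb, for H3K27Ac, RAD21 and PDS5A. Colours are genotypes, dotted lines untreated and solid lines treated cells; H3K27Ac counts reach 20 per 50 kb within PVT1 and stay at 4 or fewer before MYC.

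Passing H3K27Ac peaks were scarcer at the locus than in the lists as a whole. In untreated WT 8 of 65 passed (12.3%, interval 5.47 to 22.8), against 22.6% of the whole list. In treated WT 12 of 95 passed (12.6%), against 23.1%. In untreated KO 7 of 62 passed (11.3%), against 23.2%, and in treated KO 9 of 111 (8.11%), against 21.7%. In untreated Rescue 19 of 103 passed (18.4%), against 36.6%, and in treated Rescue 22 of 123 (17.9%), against 29.3%. The locus share lay below its list in 6 of 6 lists, and in 5 of 6 the list's share was above the locus interval, untreated WT being the exception.

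For the cohesin subunit RAD21 the locus share differed from that of its list beyond counting error in 1 of 6 lists. Untreated, 4 of 16 peaks passed in WT (25%, against 23.8% of the list), 9 of 25 in KO (36%, against 28.2%) and 9 of 22 in Rescue (40.9%, against 37.2%). Treated, 7 of 36 passed in WT (19.4%, against 42.9%), 3 of 13 in KO (23.1%, against 24.7%) and 6 of 24 in Rescue (25%, against 42.2%). The locus was above its list in the 3 untreated lists and below it in the 3 treated ones, but only in treated WT did the interval (8.19 to 36) leave out the list's share. In the other 5 lists the difference was within counting error.

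Of the 82 PDS5A peaks 11 passed, and the locus share lay below its list in 6 of 6 lists. In untreated WT 0 of 9 passed, against 12.2% of the list, and in untreated KO 0 of 7, against 9.87%. Those counts of 0 allow a share of up to 33.6% and 41%. Treated WT had 2 of 20 (10%, against 36.1%), treated KO 2 of 9 (22.2%, against 22.3%), untreated Rescue 3 of 22 (13.6%, against 41.8%) and treated Rescue 4 of 15 (26.7%, against 42.2%). The list's share was above the interval in only 2 of 6 lists, treated WT and untreated Rescue.

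The 9 IgG peaks came from treated WT (6), treated KO (2) and untreated Rescue (1). None of them passed, and passing was rare in the whole IgG lists too: 0.946% in untreated and 4.11% in treated WT, 4.19% and 1.22% in KO, and 1.05% and 3.68% in Rescue. By the lower replicate value the highest ranked in treated WT lay 117.9 kb after the MYC start inside PVT1, with values of 7.243 and 8.078 and rank 1437 of 7612. In treated KO it lay 0.1 kb after the MYC start, with 6.71 and 5.824, and in untreated Rescue inside MYC, with 3.626 and 5.474. All 9 IgG peaks lay on spots with an H3K27Ac peak in 6 of 6 lists. The same share over the whole IgG lists was not computed, so this count is not read as a trait of the locus.

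**Figure D3:**
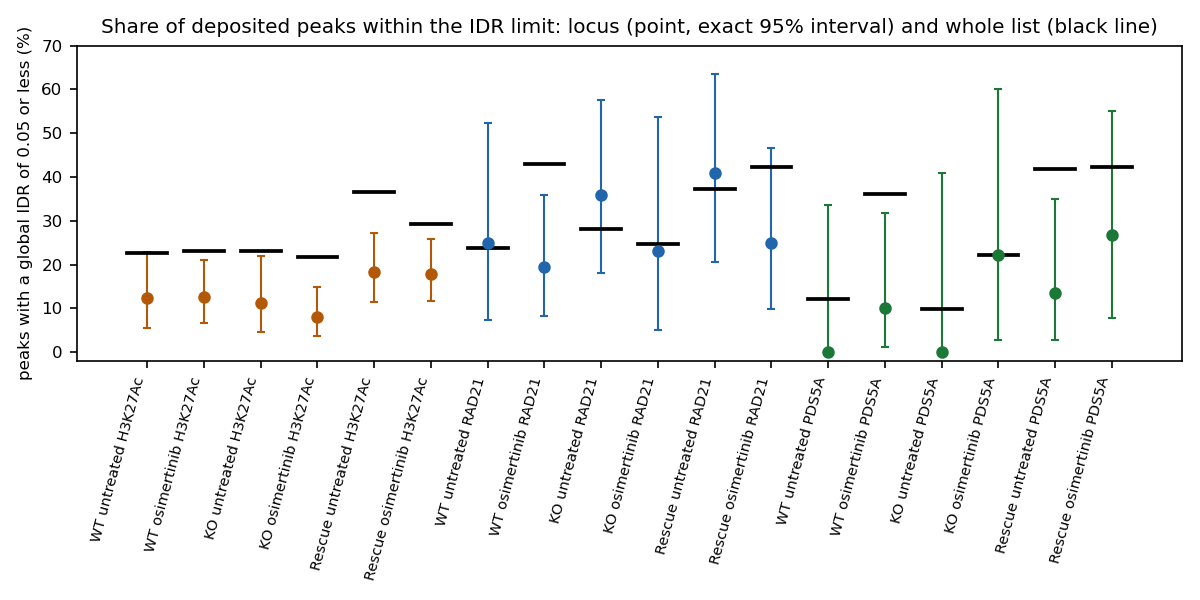
Percent of deposited peaks that passed the IDR limit of 0.05, for the locus (points with exact 95% intervals for counting error) and the whole list (black lines), for the 18 antibody lists. H3K27Ac points lie below their list in 6 of 6 lists.

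At the MYC start a deposited peak covered the first base of the gene in all 18 antibody lists, and the peak passed in 9 of them. The peaks were wide, 4562 to 7801 bp, and reached over most of the gene. Each also overlapped a deposited IgG peak of some group, none of which passed. RAD21 gave the highest ranks. In untreated WT its peak, chr8:128747099-128752175, had values of 232.3 and 86.35 and was rank 8 of 15525. Untreated KO had 121.4 and 121, rank 14 of 19008, and untreated Rescue had 168.3 and 195.4, rank 30 of 24686. The RAD21 peak over MYC was thus within the top 1% of all 3 untreated lists.

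Of the treated RAD21 lists 1 of 3 passed at MYC. Treated KO had 64.19 and 35.03, rank 297 of 17687, and passed. Treated WT had 233 in the first column and 6.95 in the second, and did not pass (global IDR 0.326). Treated Rescue had 87.34 and 3.859 and did not pass either (0.334). In both, the second replicate nevertheless had a peak nearly as wide as the first, 7044 bp beside 7801 bp in treated WT and 7159 bp beside 7221 bp in treated Rescue. A ratio between replicate values as large as in treated WT, 33.5, was seen in 13 of 38829 peaks of that list, and one as large as in treated Rescue, 22.6, in 28 of 26315. Of the 92 treated WT peaks with a higher value at least that of MYC, 7 failed the limit, and MYC was one of them. In treated Rescue 82 of 834 such peaks failed, MYC included. Few peaks were as wide in both replicates as the MYC peak. Of these, MYC included, 3 of 4 failed in treated WT and 2 of 2 in treated Rescue. A list holds 1 record per replicate for each joined peak. Whether a replicate had another record over the same interval, with another value, cannot be read from the lists, so 6.95 and 3.859 may not stand for the whole wide peak. What set these lower values was not tested.

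**Figure D4:**
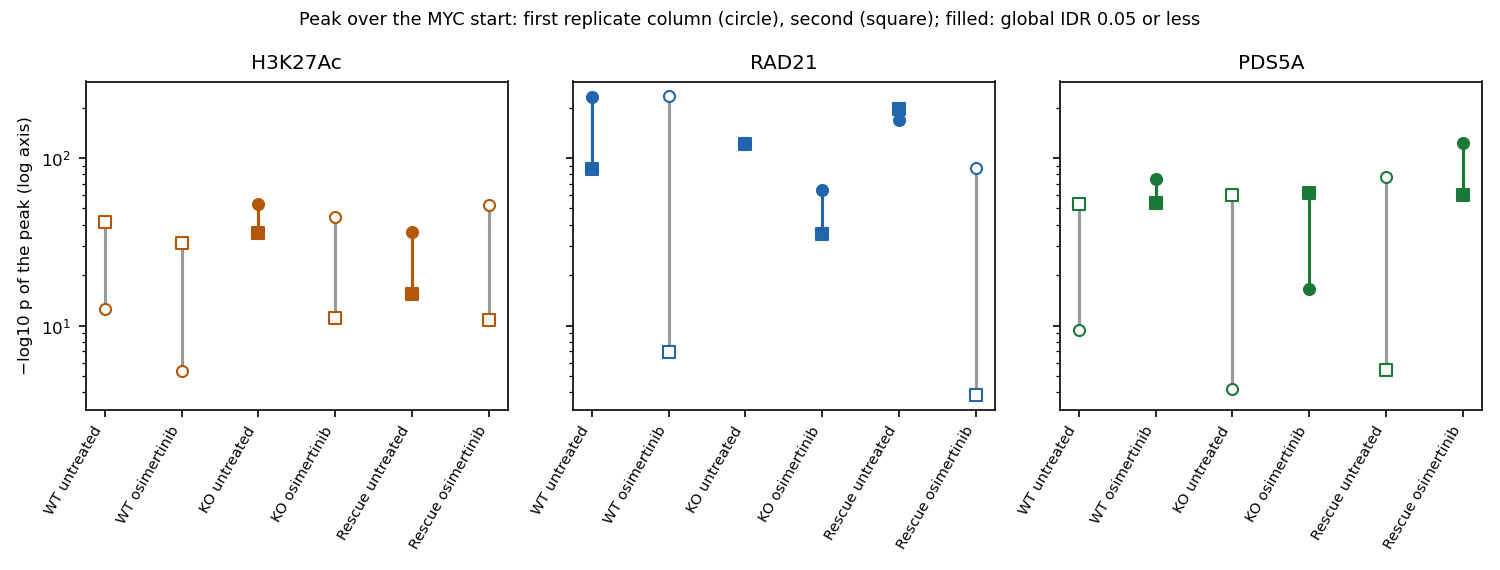
Deposited −log10 p (log axis) of the peak over the MYC start in the first (circle) and second (square) replicate column of each list, with a line joining them. Filled symbols passed the IDR limit; the widest gaps are RAD21 in treated WT (233 and 6.95) and treated Rescue (87.34 and 3.859).

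The PDS5A peak over the MYC start passed in the 3 treated lists and in 0 of the 3 untreated lists, while RAD21 passed in 3 untreated and 1 treated list. With 2500 bp on either side of the start in place of 1000 bp, PDS5A passed in 4 lists, since untreated Rescue had a separate passing peak before the gene. In WT and KO a larger share of the whole PDS5A list also passed when treated (36.1% and 22.3%) than untreated (12.2% and 9.87%). In Rescue the share of the whole list was nearly the same, 42.2% treated and 41.8% untreated. At the MYC start the treated values were 74.88 and 53.65 in WT, 16.51 and 61.91 in KO, and 123.4 and 60.28 in Rescue. Untreated WT had 9.388 and 52.76, untreated KO 4.182 and 59.78, and untreated Rescue 76.48 and 5.412. The higher replicate value was 61.91 to 123.4 in lists where the peak passed and 52.76 to 76.48 where it did not. Passing itself depends on how well both replicates rank a peak, and values from different lists are not on 1 scale, so these ranges are a description.

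H3K27Ac at the MYC start passed in untreated KO, with 52.9 and 35.79 (rank 269 of 23681), and in untreated Rescue, with 36.1 and 15.45 (rank 9696 of 39505). Untreated WT had 12.52 and 41.7, treated WT 5.356 and 30.98, treated KO 44.55 and 11.03, and treated Rescue 52.66 and 10.8, and none of these 4 passed. The peak was never within the top 1% of an H3K27Ac list.

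A separate cohesin peak lay just before the gene. A CTCF-bound element near the MYC promoter is known as a docking site for distal enhancers, and CTCF itself was not profiled here. At 1800 to 2200 bp before the MYC start, a place chosen after its values were seen, RAD21 and PDS5A each had a deposited peak in 6 of 6 lists and IgG in 0. RAD21 stood apart from the gene's peak in untreated WT (chr8:128745835-128746887, 43.32 and 14, rank 1629 of 15525) and untreated KO (chr8:128745989-128746794, 55.23 and 22.23, rank 1690 of 19008), and both passed. In the other 4 RAD21 lists 1 peak ran from this place across the MYC start. PDS5A stood apart in 5 lists, all but treated WT. It passed there in treated KO (24.79 and 50.51), untreated Rescue (79.13 and 37.68) and treated Rescue (85.06 and 63.54), and did not pass in untreated WT (11.1 and 34.55) or untreated KO (13.47 and 21.13). H3K27Ac had small peaks there in 3 lists, treated KO and both Rescue lists, 626 to 653 bp wide, and none passed.

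**Figure D5:**
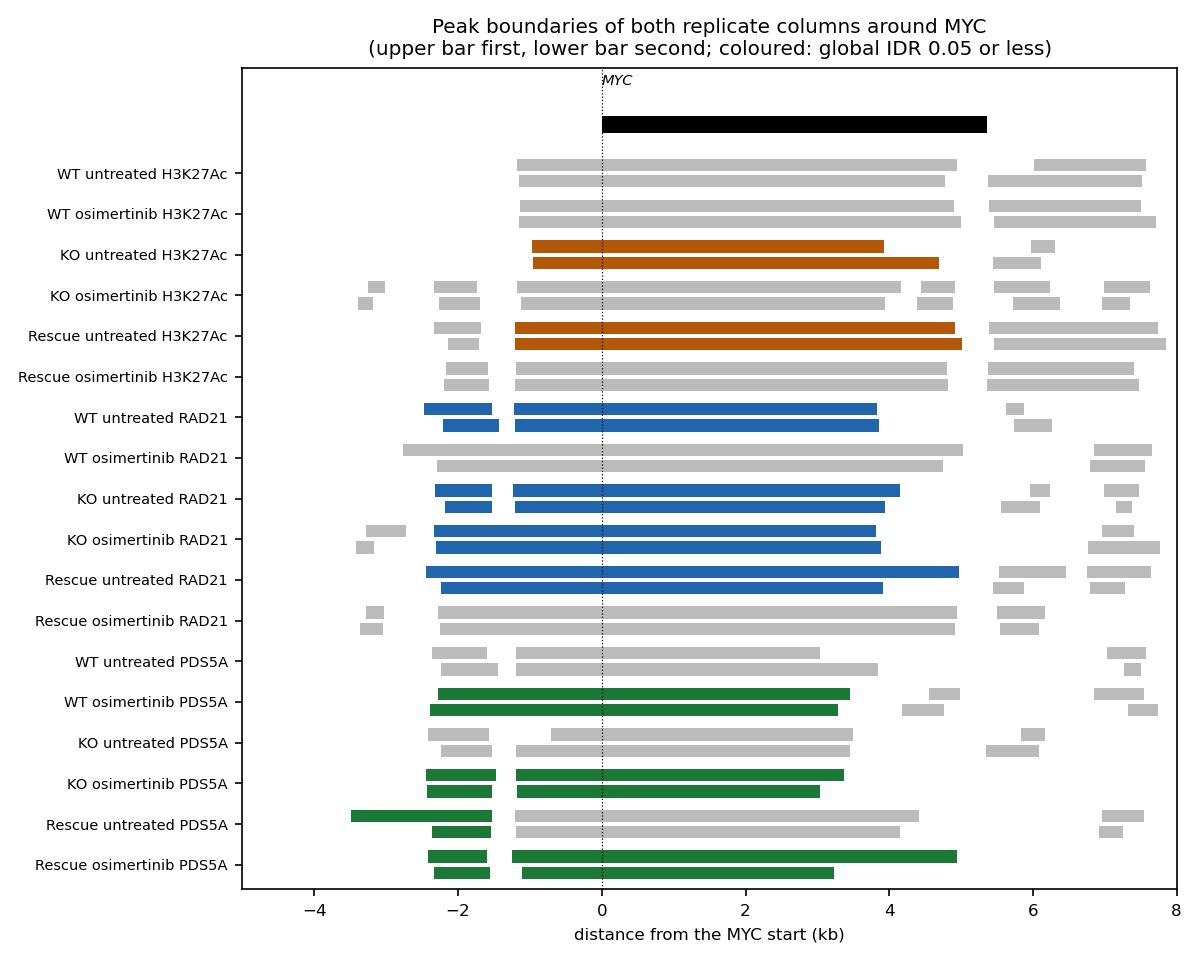
Intervals of both replicate columns around MYC (upper bar first, lower bar second) in kb from the MYC start. Coloured intervals belong to peaks that passed; in untreated WT and KO the RAD21 peak 1800 to 2200 bp before the start is separate from the peak over the gene.

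At the PVT1 start H3K27Ac and RAD21 had a deposited peak in 6 of 6 lists. H3K27Ac passed in 4: treated WT (15.05 and 28.17), untreated KO (19.98 and 22.44), untreated Rescue (27.43 and 29.96) and treated Rescue (37.7 and 41.7, rank 1780 of 45234). It did not pass in untreated WT (15.83 and 7.859) or treated KO (4.708 and 20.82). RAD21 passed in untreated KO (14.47 and 13.71) and treated Rescue (29.85 and 13.03). PDS5A had a peak there in 4 lists, the 3 treated ones and untreated Rescue, and passed in 0. The most unequal PDS5A pair was 27.34 and 3.225 in treated Rescue. The IgG lists of treated WT (8.403 and 6.796) and treated KO (4.599 and 3.425) also had a peak over this start.

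Inside PVT1 the RAD21 site that passed most often lay 116.9 to 118.9 kb after the MYC start, at chr8:128865214-128867177. Among the 14 RAD21 sites of the locus, this site alone passed in 6 of 6 lists, a count not made over all RAD21 sites. Its values were 52.2 and 10.06 in untreated WT, 55.93 and 50.56 in treated WT (rank 1337 of 38829), 33.2 and 13.17 in untreated KO, and 11.6 and 28.18 in treated KO. Untreated Rescue had 26.5 and 12.82, and treated Rescue 27.75 and 16.78. PDS5A had a peak on this site in 6 of 6 lists and passed in treated WT (23.38 and 19.44). IgG of treated WT had a peak there that did not pass.

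H3K27Ac around that RAD21 site gave the highest ranked H3K27Ac peak of the locus, a peak named after its values were seen. In treated KO, chr8:128863412-128868517 had values of 58.53 and 54.73 and was rank 66 of 39192. In treated Rescue, chr8:128863450-128868562 had 76.86 and 102.3, rank 153 of 45234. Treated WT had 10.17 and 36.25 and did not pass (global IDR 0.0692). Untreated WT had 19.61 and 6.757, untreated KO 4.148 and 27.89, and untreated Rescue 14.72 and 8.791, and none passed. The peak was deposited in 6 of 6 lists and 5087 to 7203 bp wide, so the lists differed in its rank and agreement rather than in its presence.

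A neighbouring H3K27Ac site 122.5 to 125.4 kb after the MYC start passed in treated WT (27.91 and 40.59, rank 908 of 44124), untreated Rescue (46.13 and 60.11, rank 729 of 39505) and treated Rescue (48.43 and 38.35). In untreated WT it had 8.3 and 43.8, in untreated KO 10.11 and 27.22 and in treated KO 4.834 and 37.79, and it did not pass. PDS5A on this site was deposited in 6 of 6 lists and passed in untreated Rescue (20.19 and 33.25).

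How many H3K27Ac sites of the whole genome passed in 6 of 6 lists was not counted. Of the 36 at the locus 2 did, where a site joins overlapping passing peaks of 1 antibody. The first lay inside PVT1, 174.4 to 176.8 kb after the MYC start (chr8:128922765-128925084). Its values were 28.63 and 16.44 in untreated WT, 18.62 and 28.44 in treated WT, 14.58 and 22.58 in untreated KO, and 17.66 and 22.46 in treated KO. Rescue had 34.41 and 33.32 untreated and 27.85 and 30.52 treated, and its 2 pairs were the most even. RAD21 and PDS5A each had a deposited peak on it in 2 lists, and neither passed. The second lay beyond PVT1, 438.8 to 443.1 kb after the MYC start (chr8:129187089-129191394), as 2 adjoining peaks in WT and KO and as 1 in Rescue, of 3596 bp untreated and 3541 bp treated. In both WT lists the peak nearer PVT1 passed, and in both KO lists the farther one.

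The second site also held cohesin. RAD21 passed at chr8:129188333-129190085 in 5 lists, best in untreated Rescue (45.9 and 34.59, rank 1680 of 24686) and treated Rescue (43.87 and 34.72). Untreated KO had 83.89 and 23.73, and treated KO, the exception, had 7.048 and 7.926. PDS5A passed there in both Rescue lists (20.74 and 29.11 untreated, 24.58 and 9.077 treated), had peaks that did not pass in both WT lists, and had no deposited peak in either KO list.

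Another pair of RAD21 sites passed in 4 or more lists. One lay inside PVT1, 72.8 to 75.1 kb after the MYC start (chr8:128821074-128823389), and passed in all but untreated WT, where it had 21.07 and 4.294. Its highest pair was 78.44 and 32.35 in treated WT, and untreated KO had 49.85 and 26.8, rank 1118 of 19008. PDS5A passed on it in treated Rescue (26.77 and 12.51) and had no deposited peak in untreated KO. The other lay at -68.5 to -66.1 kb from the MYC start (chr8:128679841-128682263) and passed in 4 lists, treated WT among them. IgG of treated WT also had a peak on this site, which did not pass. Untreated WT missed the limit there by little (32.01 and 8.585, global IDR 0.0505), and treated KO had 15.53 and 6.176.

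Some passing RAD21 peaks had no deposited counterpart in other lists. A peak at chr8:128412693-128413773, at -335.6 to -334.5 kb from the MYC start, was deposited in untreated Rescue alone, with 65.81 and 27.31 and rank 2721 of 24686. PDS5A was deposited there in 2 lists. At chr8:128813098-128813905, inside PVT1, RAD21 passed in treated Rescue (21.66 and 21.8) and was deposited in 1 other list, treated WT (6.069 and 7.781). A site 12 to 13.7 kb after the MYC start passed in untreated KO (18.96 and 16.45) and untreated Rescue (24.38 and 21.02) and had no deposited peak in treated WT. The site farthest before MYC, at -521.4 to -520.4 kb, passed in untreated Rescue (17.64 and 16.57) and had none in treated KO.

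Among the H3K27Ac lists, sites of the locus were missing most often in untreated KO. Of the 36 H3K27Ac sites, 13 lacked a deposited peak in some list, and untreated KO lacked one in all 13 of them, treated WT in 2, and untreated WT, treated KO and treated Rescue in 1 each. The untreated WT list held 22625 deposited peaks and the untreated KO list 23681, while the treated and the Rescue lists held 39192 to 45234. What part list length had was not tested. Sites without a peak in untreated KO were not counted over the whole genome, so there is no share to set beside this count. A site had to pass in some list to be counted, which favours lists with many passing peaks, and untreated KO had 7 in the locus, the fewest. Before MYC, a site at -140.5 to -138.6 kb from the MYC start passed in treated WT (20.67 and 20.77) and treated KO (20.55 and 15.72), and one at -169.3 to -168 kb in treated Rescue (20.73 and 27.3). Inside PVT1, chr8:128860505-128861887 passed in treated WT (22.17 and 25.17) and both Rescue lists. Beyond PVT1, chr8:129179218-129182497 passed in the same 3 lists, with 17.76 and 20.66 in treated WT. A site at -443.3 to -440.3 kb passed in 4 lists, with 35.97 and 23.55 in untreated WT, and was deposited in 6.

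The comparison of treated with untreated cells asks whether prolonged osimertinib goes with a different set of peaks at the locus. Over the 3 genotypes and 3 antibodies, treated cells held 60% of the passing H3K27Ac peaks of the pair in WT, 56.2% in KO and 53.7% in Rescue, where the whole lists gave 66.7%, 60.8% and 47.8%. For RAD21 the shares were 63.6%, 25% and 40%, where the lists gave 81.9%, 44.9% and 54.7%. For PDS5A they were 100%, 100% and 57.1%, where the lists gave 87.7%, 81.8% and 44.9%. The list's share lay inside the locus interval in 9 of 9 comparisons, so a difference in number beyond that of the whole lists was not detectable with so few peaks. With lists shortened to equal length the treated share was 42.9% for H3K27Ac in WT, 46.2% for H3K27Ac in KO and 33.3% for RAD21 in WT, each then below 50%.

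Genotypes were compared in the same way. Of the passing H3K27Ac peaks of KO and WT, KO held 46.7% untreated and 42.9% treated, where the whole lists gave 51.8% and 45.5%. For RAD21 it held 69.2% and 30%, where the lists gave 59.3% and 20.8%, and for treated PDS5A 50%, where the lists gave 24.5%. Of the passing H3K27Ac peaks of Rescue and KO, Rescue held 73.1% untreated and 71% treated, where the lists gave 72.4% and 60.9%. For RAD21 it held 50% and 66.7%, where the lists gave 63.1% and 71.7%, and for PDS5A 100% and 66.7%, where the lists gave 93.9% and 73.7%. The list's share lay inside the interval in each of the 11 genotype comparisons with a passing peak; KO against WT in untreated PDS5A had 0 passing peaks on both sides. With both lists shortened to the same length, Rescue held 50% for untreated H3K27Ac and 25% for treated RAD21, and KO held 60% against WT for treated RAD21. These comparisons share lists: KO stands in both genotype contrasts, and every list in a treatment contrast.

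Which peaks passed in both treatments was counted by overlap of 1 bp or more. For H3K27Ac 3 of 8 untreated WT peaks did, against 62.9% of the list, and 3 of 12 treated WT peaks, against 31.5%. In KO 2 of 7 untreated peaks did, against 70%, and 2 of 9 treated, against 45%. In Rescue 12 of 19 did, against 64.6%, and 12 of 22 treated, against 71.4%. These are 3 overlaps, each read from both sides. The locus share was below that of the list in each, and each interval held the list's share. Passing peaks mostly lay on a deposited peak of the other treatment, whatever its IDR, as they did in the whole lists. For untreated and treated peaks in turn, WT had 8 of 8 (list 97.8%) and 12 of 12 (74.8%). KO had 7 of 7 (99.5%) and 7 of 9 (91.1%), and Rescue 18 of 19 (97.8%) and 22 of 22 (97.9%).

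For RAD21 2 of 4 untreated WT peaks passed in both treatments, against 87.8%, and 2 of 7 treated ones, against 19.4%. In KO 4 of 9 did, against 56.4%, and 3 of 3 treated, against 69.3%. In Rescue 4 of 9 did, against 76.7%, and 4 of 6 treated, against 63.4%. For PDS5A 0 of 2 treated WT peaks did, against 12%, and 0 of 2 treated KO peaks, against 18.5%. In Rescue 2 of 3 untreated PDS5A peaks did, against 64.1%, and 2 of 4 treated, against 78.5%. None of the 16 intervals left out the list's share.

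Cohesin and acetylation overlapped differently at the locus than across the lists. Of the deposited H3K27Ac peaks of the locus, 21.5% in untreated WT lay on a deposited RAD21 peak, against 42.4% of the list, and 31.6% in treated WT, against 50.5%. KO had 27.4%, against 48.4%, untreated and 12.6%, against 30.3%, treated. Rescue had 18.4%, against 39.2%, and 17.1%, against 37.4%. The list's share was above the locus interval in 6 of 6 lists.

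Read from RAD21, the overlap with H3K27Ac was higher than in the list. It was 81.2% of 16 peaks in untreated WT, against 62.2%, and 88.9% of 36 in treated WT, against 58.2%. KO had 64%, against 61.1%, and 92.3%, against 68.8%; Rescue had 86.4%, against 65.4%, and 91.7%, against 65.9%. The list's share was below the locus interval in 2 lists, treated WT and treated Rescue. H3K27Ac peaks covered 7.46% to 16.3% of the locus, and what part this coverage had in either overlap was not tested.

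RAD21 peaks of the locus lay on a deposited PDS5A peak less often than in the lists. The share was 56.2%, against 64.4%, in untreated WT and 47.2%, against 74.9%, in treated WT. KO had 24%, against 38.9%, and 46.2%, against 77.6%; Rescue had 68.2%, against 89.5%, and 50%, against 80.8%. The list's share was above the interval in 4 of 6 lists. Pooled over the 6 PDS5A lists, each of the 14 RAD21 sites that passed somewhere had a deposited PDS5A peak in at least 1 list. In 5 of them such a peak passed. The same pooled share over all RAD21 sites was not computed, so these counts are not read as a trait of the locus.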

How the data were processed

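Each list was deposited by the authors as a table that joins both replicates of 1 group. Its values are the −log10 p of each replicate's peak, the lower of them per joined peak, the −log10 of the global IDR (which is neither a p-value nor a q-value) and a scaled score, as deposited. The submitters' processing notes name the build GRCh37, Bowtie2 2.4.2 and Trimmomatic, MACS2 2.2.7.1 and SAMtools 1.16, and also bedtools 2.30, FastQC and deepTools 3.5.1. Which step each served, how peaks were called against which control, and the IDR program's version are not given in the sources used here.

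The 24 lists stand for 48 of 60 samples; no source says that replicates were separate cultures. Depth per library is unknown from the lists. Peaks on chromosomes 1 to 22 and X were kept, which left out 90 rows on other sequences. Gene and region limits were given with the question asked of these data, and the members, sites and lists were chosen with earlier results of these data known. Named were peaks within 1000 bp of the MYC or PVT1 start, per antibody the 4 other sites passing in most lists and the 4 best ranked that lacked a deposited peak in some list, and the best IgG peak of each list; others are said to be chosen after their values were seen. Alternatives were every deposited peak, an IDR of 0.01, peaks on IgG left out, lists shortened to equal length, single replicate columns, another overlap, another window and the deposited score. Python 3.11.15, pandas 2.3.3, scipy 1.17.1 and matplotlib 3.10.9 were used. The overlap code was tested on simulated data and gave the right answer for 2000 of 2000 peaks.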

Additional observations from a re-analysis of the deposited data

Results flagged for a closer look

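RAD21 peaks that passed at the locus gave counts of different sign between genotypes. Treated minus untreated, their number was 3 in WT (7 against 4), -6 in KO (3 against 9) and -3 in Rescue (6 against 9). With 1 list per group the difference between genotypes was not tested. With both lists of a genotype shortened to equal length, the counts were 2 against 4 in WT, 3 against 7 in KO and 6 against 9 in Rescue, so the signs no longer differed. Whole RAD21 lists had 16655 against 3691 passing peaks in WT, 4372 against 5369 in KO and 11103 against 9188 in Rescue. The treated share of each list lay inside the interval of the locus, and deposited RAD21 peaks of the locus numbered 24 against 22 in Rescue.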

How the results depend on the processing

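Of 274 values recomputed under an alternative, 239 stayed within the interval of the reported value or, for counts, 1.5 times of it, and 34 moved further. The last, Rescue against KO for untreated H3K27Ac, had an interval above 50% and went below it (46.2%). Shares whose interval held 50% from the start crossed it more often. Out of all contrasts, 5 of 19 crossed with lists shortened to equal length, 3 of 20 with every deposited peak, and 0 at an IDR of 0.01 or off IgG. With lists shortened, 6 of 19 crossed without the first replicate column, the share just named among them. Without the second column 5 of 20 crossed. Causes were not tested. Left with peaks off IgG, every start count was 0 lists, since each start peak lies on a deposited IgG peak, and KO against WT in treated PDS5A was 100%. With every deposited peak the MYC start counted 6 lists for H3K27Ac and 6 for PDS5A, the PVT1 start 6 for RAD21 and 4 for PDS5A, and the share found in the other treatment for H3K27Ac was 92.3% in untreated WT, 98.4% in untreated KO, 87.4% in untreated and 80.5% in treated Rescue. At an IDR of 0.01 that share was 0% in both WT lists and both KO lists of H3K27Ac and both WT lists of RAD21, and 100% in untreated Rescue PDS5A; the MYC start counted 1 list for H3K27Ac and the PVT1 start 0 for RAD21. With lists shortened to equal length Rescue held 50% against KO for untreated H3K27Ac and 25% for treated RAD21. Ordered by the deposited score, the top 1% held the MYC start in 1 list for H3K27Ac and 2 for PDS5A, and the PVT1 start in 2 for H3K27Ac. Without 1 replicate column, lists shortened, Rescue against KO for untreated H3K27Ac ranged from 46.2% to 50%, treated RAD21 gave 25% both times, and treated against untreated WT RAD21 ranged from 20% to 33.3%, against 63.6% with full lists. By 1 replicate column alone, the top 1% held the MYC start in 0 to 1 list for H3K27Ac and 3 to 5 lists for RAD21. No paired analysis was possible because the value columns carry no replicate numbers and the results come from no test.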
